A study of Homo sapiens with 6 samples.

Results

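The AP-1 factors measured here were the products of 10 genes, chosen by symbol: FOS, FOSB, FOSL1, FOSL2, JUN, JUNB, JUND, ATF3, JDP2 and BATF3. All 10 were found among the 21293 genes of the RNA-seq table, and all 10 were kept for testing, which required an average of 10 or more over the 6 libraries. The cells were H2087-LCC, a human lung adenocarcinoma line derived from H2087 by selection in mice for cells that persist as dormant metastases. In the SB group, cells received SB505124, which blocks the kinase of the TGFβ type I receptor, during 3 days. The other groups received TGFβ for 3 days or for 7 days, without the inhibitor. Each group had 2 libraries. A figure legend of the study calls them technical replicates, while the labels and methods do not say whether they came from separate cultures. The p-values below measure only the spread between these libraries, and whether that spread includes variation between cultures is not known. An SB group at 7 days was not analysed here, so that in the comparison of 7 days of TGFβ with SB the treatment and the time in culture cannot be told apart. In the comparison of 7 with 3 days, the duration of TGFβ and the time in culture cannot be told apart either.

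AP-1 is a family of dimeric transcription factors whose members pair through a leucine zipper and bind DNA through an adjacent basic region. Fos proteins pair only with partners such as the Jun proteins, whereas Jun proteins can also pair with each other, and the dimers bind the TPA response element (TRE, TGACTCA) or the related cyclic AMP response element (CRE, TGACGTCA). ATF3, JDP2 and BATF3 lack a strong activation domain and often act as repressors or as partners that change which sites are used. FOS, FOSB, JUNB and ATF3 are induced within minutes by growth factors and stress, and FOSL1 and FOSL2 follow later and last longer. In epithelial cells exposed to TGFβ, AP-1 acts with the SMAD proteins at many target genes.

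The members lie on 5 chromosomes of GRCh37 in the GENCODE annotation: FOS at chr14:75745529-75748933, JDP2 at chr14:75894419-75940814, FOSB at chr19:45971253-45978437, JUNB at chr19:12902300-12904129, JUND at chr19:18390504-18392432, FOSL1 at chr11:65659520-65668044, FOSL2 at chr2:28615315-28640184, JUN at chr1:59242517-59249720, ATF3 at chr1:212738676-212794119 and BATF3 at chr1:212859759-212873182. Each value below counts reads over the exons of the whole gene. FOS and JDP2 are neighbours, 145.485 kb apart with 0 protein-coding genes between them, and ATF3 and BATF3 lie 65.639 kb apart. BATF, which follows JDP2 after 47.983 kb, was at 0 in all 6 libraries.

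Promoter sequences of RefSeq on GRCh38.p14, from 250 bases before to 50 bases after the start site, were found for 8 of the 10 members; FOSL1 and BATF3 had no entry. They were searched on both strands for the letters of elements that AP-1 and CREB family proteins bind. The CRE core TGACGT occurred in 5 of the 8 (FOS, FOSB, FOSL2, JUND and JDP2) and in 7.98% of all 35116 promoters of this length. Members were counted by gene, with a match in any entry, while the percentages count single entries. JDP2 had 3 entries, and the core was in the second only. The complete CRE, which contains this core, occurred in JUND, against 1.85% of all promoters. The variant TGACATCA, the form known from the JUN promoter, occurred in JUN and in the first of the 2 ATF3 entries, against 2.61%. FOSL2 held the TRE, 4 bases after its start site, against 4.95%. The CArG box (1.29% of promoters) and the palindromic SMAD element GTCTAGAC (0.202%) occurred in 0 of the 8. A match describes letters only, and no match says only that these letters were not in this window.

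The 250 bases before the start site are shown for the Jun genes, for FOS and FOSB, and for the first entry of ATF3. Several of these genes share an element. FOSL2 and JDP2, which also hold the core TGACGT, are not shown. Capitals mark TGACGT or its reverse complement, the CRE and TGACATCA. In FOS and FOSB the core begins 64 and 60 bases before the start site, and in JUN the variant begins 67 bases before it.

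FOS (chr14:75278578-75278827, plus strand): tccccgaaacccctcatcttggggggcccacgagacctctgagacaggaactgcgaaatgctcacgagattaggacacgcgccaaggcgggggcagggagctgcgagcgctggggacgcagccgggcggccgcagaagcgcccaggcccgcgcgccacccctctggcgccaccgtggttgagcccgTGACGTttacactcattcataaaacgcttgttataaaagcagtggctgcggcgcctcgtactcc
FOSB (chr19:45467746-45467995, plus strand): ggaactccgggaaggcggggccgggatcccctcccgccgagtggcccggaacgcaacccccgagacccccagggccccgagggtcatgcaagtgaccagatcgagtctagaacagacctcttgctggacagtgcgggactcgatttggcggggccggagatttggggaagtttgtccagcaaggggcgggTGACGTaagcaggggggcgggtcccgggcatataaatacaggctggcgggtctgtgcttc
JUN (chr1:58784048-58784297, minus strand): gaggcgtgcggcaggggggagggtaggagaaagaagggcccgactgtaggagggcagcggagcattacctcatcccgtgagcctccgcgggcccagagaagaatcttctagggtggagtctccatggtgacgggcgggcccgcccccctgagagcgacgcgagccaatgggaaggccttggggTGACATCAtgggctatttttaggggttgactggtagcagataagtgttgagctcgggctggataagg
JUNB (chr19:12791236-12791485, plus strand): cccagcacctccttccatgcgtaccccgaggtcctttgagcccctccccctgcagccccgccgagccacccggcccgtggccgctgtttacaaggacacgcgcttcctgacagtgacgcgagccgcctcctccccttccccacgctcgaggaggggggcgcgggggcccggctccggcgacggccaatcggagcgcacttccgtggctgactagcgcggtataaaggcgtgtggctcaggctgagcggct
JUND (chr19:18281623-18281872, minus strand): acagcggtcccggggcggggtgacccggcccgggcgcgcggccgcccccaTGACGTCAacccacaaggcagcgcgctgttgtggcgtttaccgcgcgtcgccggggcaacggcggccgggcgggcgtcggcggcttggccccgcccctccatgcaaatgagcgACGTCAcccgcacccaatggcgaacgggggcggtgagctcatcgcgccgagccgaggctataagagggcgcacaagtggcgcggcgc
ATF3 (chr1:212565157-212565406, plus strand): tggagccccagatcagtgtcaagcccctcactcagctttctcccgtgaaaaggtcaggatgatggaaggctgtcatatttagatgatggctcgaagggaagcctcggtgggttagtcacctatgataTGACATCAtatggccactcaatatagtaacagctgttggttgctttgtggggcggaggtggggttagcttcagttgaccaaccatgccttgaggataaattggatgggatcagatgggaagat

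The table gives normalized counts, that is, reads per gene scaled by the authors for library size and rounded. Totals ran from 34306283 to 36340734 per library, and the steps among low values placed the worth of 1 read at 0.896 to 1.1 normalized counts. The treatment was visible in the TGFβ target SMAD7, which averaged 95.5 in SB and 857.5 and 800.5 after TGFβ for 3 and 7 days. Of the 10 markers of lung adenocarcinoma and epithelial cells, the keratin KRT8 lay between 33341 and 42692 in every library. Others moved with the groups: EPCAM went from 10180 and 9106 in SB to 2988 and 3277 at 7 days, NKX2-1 from 2784 and 2908 to 853 and 857, SFTPB from 1104 and 8273 to 22 and 19, and CDH1 (E-cadherin) from 371 and 635 to 10 and 9, while KRT7 went from 5860 and 6183 to 13979 and 11230. The summed level of the 10 lay between 90207 and 126480. Of 4 fibroblast markers, DCN and LUM were at 1 or less and PDGFRA between 8 and 16, and COL1A1 went from 196 and 250 in SB to 581 and 457 at 7 days. Of 5 leukocyte markers, 4 were at 13 or less and CD68 lay between 4368 and 5113. The part of these changes in the results was not tested. In bulk libraries, fewer cells with a transcript and less transcript per cell cannot be told apart.

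Libraries of the same group did not agree equally well for these genes. Among 11389 genes whose mean reached 100, FOS had the largest difference between the 7-day libraries, at 991 in replicate 1 and 140 in replicate 2, which corresponds to about 1106 and 135 reads. The median difference between these libraries was 0.104 on the log2 scale and that of FOS was 2.81. Other immediate early genes differed in the same direction, including the zinc finger factor EGR1 (1676 and 779, rank 3), JUNB (1963 and 1234, rank 24) and the MAP kinase phosphatase DUSP1 (1108 and 697, rank 26). Of the 24 other immediate early genes tested, 9 differed between the SB libraries by more than 95% of those 11389 genes did, against 0 at 3 days and 4 at 7 days. Some of those beyond this limit (EGR2, NR4A1, NR4A3 and KLF2 in SB, and NR4A1 at 7 days) had means under 100, where counting error is larger. Of the 24, 19 were higher in the 7-day replicate 1, against 12 in the 3-day replicate 1 and 16 in the SB replicate 1. In SB, FOSL1 was at 17421 and 10815, and the 2 YAP and SRF targets CYR61 and CTGF (CCN1 and CCN2) were also higher in replicate 1, at 11080 and 5910 and at 3032 and 1724. The SB differences did not share a direction. BTG2 (167 and 346), IER3 (937 and 1377) and NR4A1 (69 and 110), also beyond the limit, were higher in replicate 2. What these differences come from was not tested. The calls of the members, and the gene list counts, are given below with 1 library left out where that changes them.

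**Figure D1:**
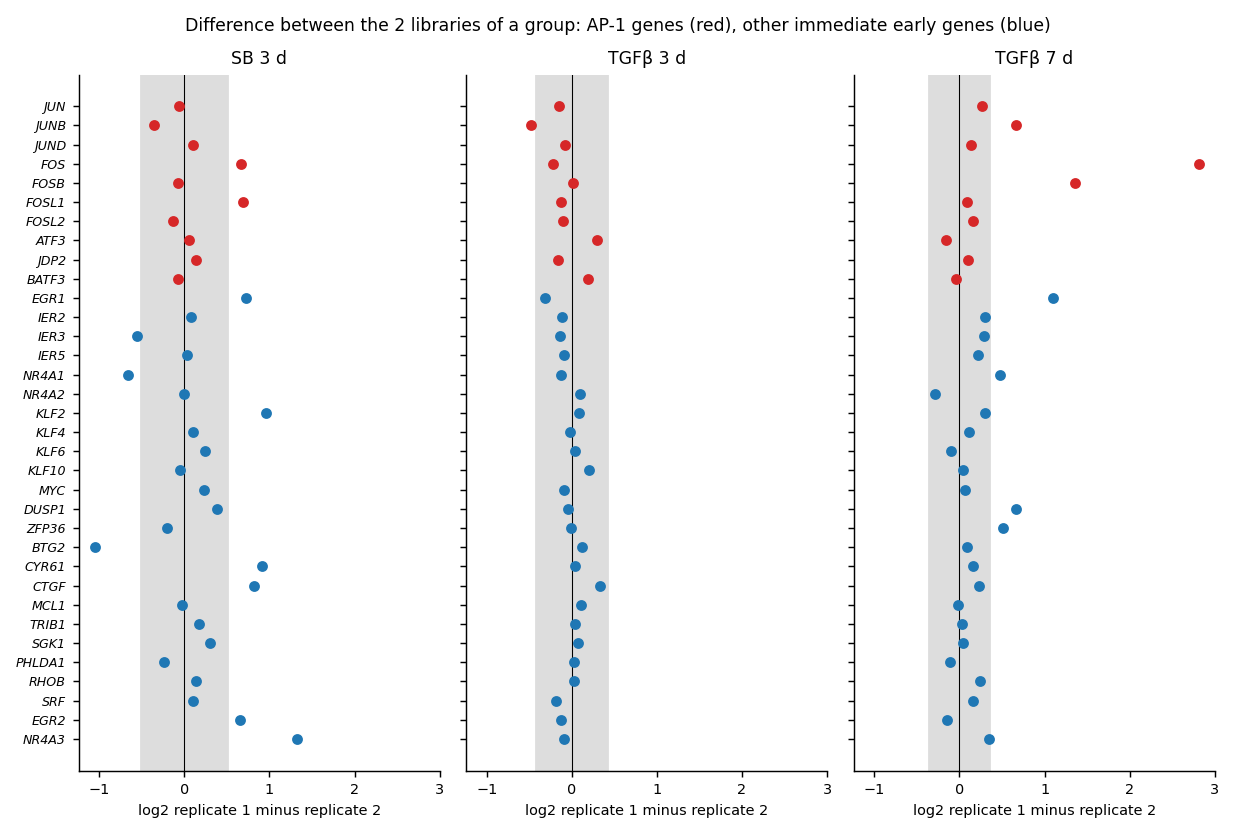
Each point is 1 gene, placed by its log2 value in replicate 1 minus that in replicate 2 (x axis) in the SB, TGFβ 3-day and TGFβ 7-day groups; the grey band holds 95% of the 11389 genes whose mean reached 100. FOS stands at 2.81 in the 7-day group, beyond every other gene drawn, and of the 24 other immediate early genes 9 lie beyond the band in the SB panel, 0 in the 3-day panel and 4 in the 7-day panel.

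The members did not move as a block. JUNB rose under TGFβ while JUN fell, FOSL1 and ATF3 held their levels within the spread at 3 days and fell by 7 days, and JUND and JDP2 rose by 7 days. After 3 days, 4 of the 10 members passed the threshold of an adjusted p of 0.05 (limma, Benjamini-Hochberg over all 14395 genes tested) against SB, with JUNB and FOSB higher and JUN and BATF3 lower; of all genes tested, 29.0% passed, 14.9% higher and 14.0% lower. After 7 days against SB, 7 members passed, with JUNB, JUND and JDP2 higher and FOSL1, JUN, ATF3 and BATF3 lower, against 54.5% of all genes (27.7% higher and 26.9% lower). Between 7 and 3 days, 6 passed, with JUNB, JUND and JDP2 higher and FOSL1, ATF3 and BATF3 lower, against 33.2% of all genes (17.0% higher and 16.2% lower). The 2 libraries of each group did not overlap in 7, 8 and 7 of the 10 members in these comparisons, against 63.2%, 77.5% and 69.1% of all genes. With so many genes changed, these shares do not set the members apart from the rest. The median log2 fold change of the members was 0.01, 0.05 and -0.08 in the 3 comparisons, beside -0.02, -0.00081 and 0.02 over all genes tested. Without 1 library at a time the members called ranged from 2 to 5, from 7 to 9 and from 3 to 6; the lowest counts came without either 3-day library in the first comparison, and without the 3-day replicate 1 in the last.

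**Figure D2:**
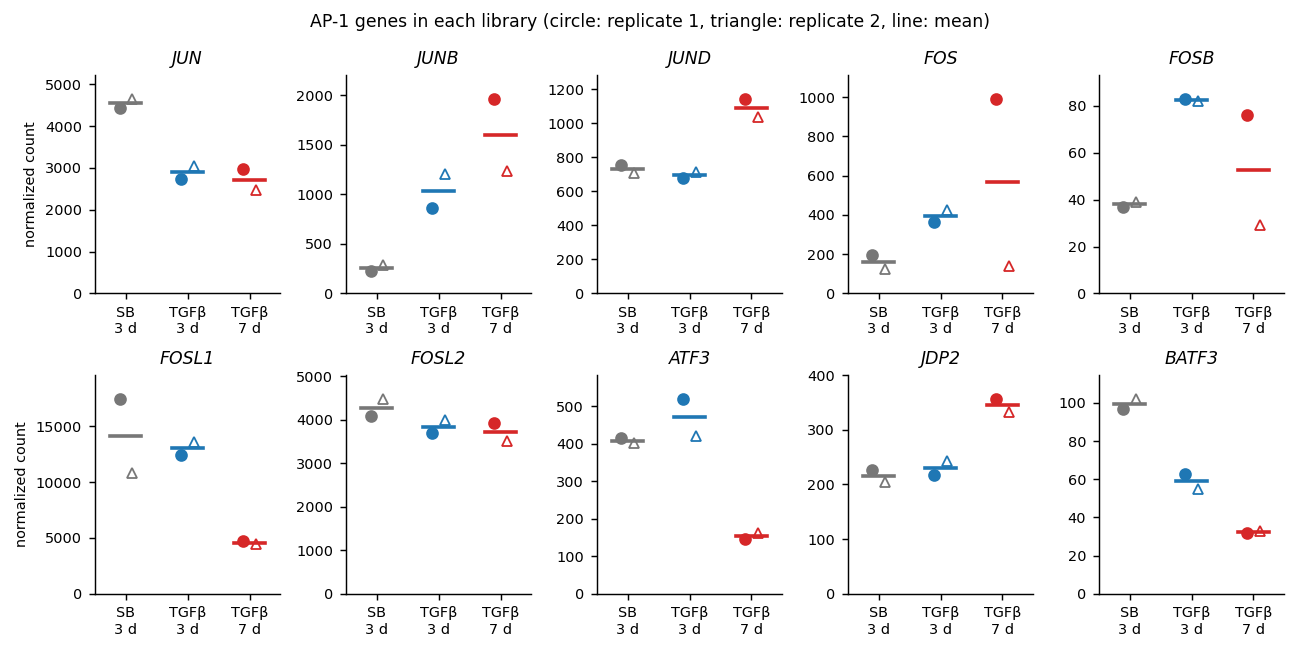
Normalized counts (y axis, linear, from 0) of the 10 AP-1 genes in the 2 libraries of each group, with circles for replicate 1, triangles for replicate 2 and a line at the mean. JUNB climbs from 222 and 284 in SB to 1963 and 1234 at 7 days, while FOSL1 drops to 4712 and 4433 and the 7-day libraries of FOS lie at 991 and 140.

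Among the Jun genes, JUNB, which encodes a Jun protein of weaker transforming activity than c-Jun, had the largest rise of any member. Its normalized counts were 222 and 284 in SB, 862 and 1208 at 3 days, and 1963 and 1234 at 7 days. Every TGFβ library lay above both SB libraries, and both 7-day libraries lay above both 3-day libraries, the closest being 1208 and 1234. JUNB was 4.05-fold higher at 3 days than in SB (log2 fold change 2.02, SE 0.215, adjusted p = 2.51e-05) and 6.18-fold higher at 7 days (2.63, SE 0.215, adjusted p = 1.24e-06). Its difference between 7 and 3 days, 1.53-fold (log2 fold change 0.61, SE 0.215), had an adjusted p of 0.0474. That last call was marginal. Without the 7-day replicate 1 the log2 fold change was 0.27, and without the 3-day replicate 1 it was 0.37. The call was lost in both cases, and also without either SB library, where the log2 fold change stayed at 0.61. With all 6 libraries it was lost with no filter on low values, equal library totals or no trend in the fit (limma, adjusted p = 0.208, 0.0696 and 0.17).

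JUN encodes c-Jun, the Jun protein whose activity is raised by the JNK kinases. Its counts were 4439 and 4653 in SB, 2744 and 3056 at 3 days, and 2972 and 2465 at 7 days. Both SB libraries lay above all 4 TGFβ libraries, and the 3-day and 7-day libraries overlapped. JUN was 1.57-fold lower at 3 days (log2 fold change -0.65, SE 0.105, adjusted p = 0.000635) and 1.68-fold lower at 7 days (-0.75, SE 0.105, adjusted p = 9.75e-05) than in SB. The 7-day and 3-day means differed by -0.10 on the log2 scale, with a 95% interval from -0.33 to 0.13.

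JUND, a Jun gene expressed in many resting cells, moved later. It was at 757 and 706 in SB, at 678 and 715 at 3 days, and at 1144 and 1039 at 7 days. The SB and 3-day libraries overlapped, and both 7-day libraries lay above the other four. JUND was 1.49-fold higher at 7 days than in SB (log2 fold change 0.58, SE 0.111, adjusted p = 0.000926) and 1.57-fold higher than at 3 days (0.65, SE 0.111, adjusted p = 0.00136). At 3 days its log2 fold change against SB was -0.07, with a 95% interval from -0.31 to 0.17.

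Of the Fos genes, FOSL1 (FRA1), which lacks the strong activation domain of FOS and is maintained by RAS and MAP kinase signaling in many carcinomas, fell most. Its counts were 17421 and 10815 in SB, 12415 and 13592 at 3 days, and 4712 and 4433 at 7 days. The 3-day libraries lay between the 2 SB libraries, and both 7-day libraries lay below all others. FOSL1 at 7 days was 3.00-fold lower than in SB (log2 fold change -1.59, SE 0.164, adjusted p = 9.21e-06) and 2.84-fold lower than at 3 days (-1.51, SE 0.164, adjusted p = 7.7e-05). At 3 days the value against SB depended on the SB library used: -0.08 with both (adjusted p = 0.757), 0.26 without the SB replicate 1 (adjusted p = 0.0619) and -0.42 without the SB replicate 2 (adjusted p = 0.00912).

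FOSL2 (FRA2), the close relative of FOSL1, stayed within a narrow range, at 4072 and 4470 in SB, 3694 and 3984 at 3 days, and 3928 and 3505 at 7 days. Both SB libraries lay above all 4 TGFβ libraries, but no comparison passed the threshold. The log2 fold change was -0.15 at 3 days (95% interval -0.36 to 0.05, adjusted p = 0.251) and -0.20 at 7 days (-0.41 to 0.00433, adjusted p = 0.0896). FOSL2 and FOS were the 2 members that passed in none of the 3 comparisons.

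FOS, the prototype of the immediate early genes, was at 194 and 122 in SB, 362 and 423 at 3 days, and 991 and 140 at 7 days. Both 3-day libraries lay above both SB libraries, and the 7-day libraries lay on either side of them, one above every other library and one among the SB libraries. The log2 fold change at 3 days was 1.34 (SE 0.617, 95% interval -0.00826 to 2.69, adjusted p = 0.127 with limma over all 6 libraries). When the SB and 3-day libraries were fitted alone, the same 1.34 had an adjusted p of 0.000492, and it also passed without either 7-day library (adjusted p = 0.000726 and 0.000539), since the spread of the 7-day pair no longer entered the error. At 7 days against SB the log2 fold change was 1.27 (adjusted p = 0.101), and it was -0.14 without the 7-day replicate 1 (adjusted p = 0.71) and 2.68 without replicate 2 (adjusted p = 7.97e-06). Between 7 and 3 days, the value of -0.07 became -1.48 without replicate 1 (adjusted p = 0.00417) and 1.34 without replicate 2 (adjusted p = 0.00615). The sign of FOS at 7 days thus depended on which of the 2 libraries was used.

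FOSB, the Fos gene best known for its stable truncated product in neurons, had the lowest level per length of the 10. It was at 37 and 39 in SB, 83 and 82 at 3 days, and 76 and 29 at 7 days. The 3-day libraries lay above all others, and those at 7 days lay on either side of SB. FOSB was 2.14-fold higher at 3 days (log2 fold change 1.10, SE 0.363, adjusted p = 0.0405), a call lost without any 1 of the 4 libraries compared, where the log2 fold change ran from 1.06 to 1.14 and the adjusted p from 0.0954 to 0.127. At 7 days against SB it was 0.30 (adjusted p = 0.504), with -0.38 without the 7-day replicate 1 (adjusted p = 0.367) and 0.98 without replicate 2 (adjusted p = 0.0215). Between 7 and 3 days, -0.80 (adjusted p = 0.113) became -1.48 without the 7-day replicate 1 (adjusted p = 0.0101) and -0.12 without replicate 2 (adjusted p = 0.824). The span of FOSB overlaps that of the DNA repair gene ERCC1 on the other strand, which lay between 535 and 793. The span of JUNB overlaps that of HOOK2 in the same way, at 256 to 469 in the 6 libraries. The library kit does not mark strand, so reads from any exons such a pair shares cannot be assigned. Whether their exons overlap was not examined.

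**Figure D3:**
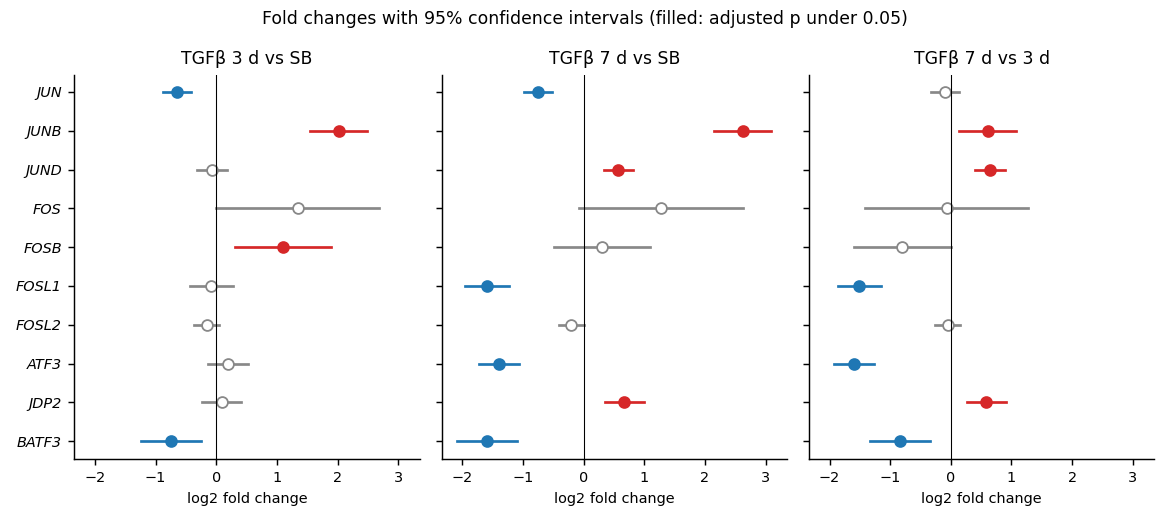
Log2 fold changes (x axis) of the 10 AP-1 genes in the 3 comparisons with 95% confidence intervals from limma; filled red and blue points passed an adjusted p of 0.05 in the higher and lower direction, and open points did not pass. FOS has the widest intervals, from -0.00826 to 2.69 at 3 days, and JUNB the highest values, 2.02 and 2.63 against SB.

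Among the ATF and JDP genes, ATF3, a stress-induced factor that TGFβ can also induce, was at 415 and 401 in SB, 519 and 422 at 3 days, and 146 and 163 at 7 days. The 3-day libraries lay slightly above SB, and both 7-day libraries lay far below. ATF3 at 7 days was 2.63-fold lower than in SB (log2 fold change -1.40, SE 0.15, adjusted p = 1.23e-05) and 3.02-fold lower than at 3 days (-1.59, SE 0.15, adjusted p = 3.19e-05). At 3 days its log2 fold change was 0.20, with a 95% interval from -0.13 to 0.53. TGACATCA was found in the promoter window of JUN and in the first of the 2 ATF3 windows. Which ATF3 start site these cells use was not examined. The 2 genes had their falls at different times: JUN was already lower at 3 days, and ATF3 was lower at 7 days.

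JDP2, a repressor that pairs with Jun proteins, was at 226 and 205 in SB, 217 and 243 at 3 days, and 356 and 333 at 7 days. The SB and 3-day libraries overlapped, and the 7-day libraries were highest. JDP2 at 7 days was 1.60-fold higher than in SB (log2 fold change 0.68, SE 0.148, adjusted p = 0.00225) and higher than at 3 days (0.58, SE 0.148, adjusted p = 0.0112). The second of these calls was lost without the 3-day replicate 1 (adjusted p = 0.09) or either 7-day library (0.0949 and 0.0583), at log2 fold changes of 0.50 to 0.63. At 3 days the log2 fold change of JDP2 against SB was 0.09 (95% interval -0.23 to 0.42). Its neighbour FOS did not share this pattern at the level of single libraries, with its highest and its second lowest value in the 7-day group.

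BATF3, a small factor without an activation domain that is best known from dendritic cells, was at 97 and 102 in SB, 63 and 55 at 3 days, and 32 and 33 at 7 days. The 3 groups did not overlap and the replicates differed by 8 or less. BATF3 was 1.68-fold lower at 3 days (log2 fold change -0.75, SE 0.226, adjusted p = 0.0277), 3.00-fold lower at 7 days (-1.58, SE 0.226, adjusted p = 0.000111), and 1.79-fold lower at 7 than at 3 days (-0.84, SE 0.226, adjusted p = 0.0151). The call at 3 days was lost without the SB replicate 2 (adjusted p = 0.0719) or either 3-day library (0.0799 and 0.152). That between 7 and 3 days was lost without the 3-day replicate 1 (0.111) or either 7-day library (0.0795 and 0.0705). ATF3, its neighbour, shared the fall between 3 and 7 days and not the call at 3 days. JUNB and BATF3 were the members that passed in all 3 comparisons, in opposite directions.

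To compare levels between genes, normalized counts were divided by the length of the canonical transcript in kb. FOSL1 had the highest level per kb in every group, with 77.6% and 67.6% of the sum over the 10 genes in SB, 72.3% and 71.9% at 3 days, and 41.9% and 48.6% at 7 days. Its share in both 7-day libraries was lower than in the other four. The summed level per kb was 13200 and 9410 in SB, 10100 and 11100 at 3 days, and 6600 and 5360 at 7 days, the 7-day libraries again being lowest. JUN was second in SB and at 3 days, and JUNB moved from rank 6 in SB to rank 4 at 3 days and rank 2 at 7 days, where JUNB (873 ± 282 per kb, SD, n = 2) and JUN (835 ± 110) were within their spread. FOSB was lowest in every group, at 10.1, 21.9 and 13.9 per kb on average.

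Within the Jun genes, JUN made up 72.6% and 73.3% of the summed level per kb in SB, 50.6% and 47.7% at 3 days, and 35.4% and 38.4% at 7 days. JUNB made up 6.46% and 7.96%, then 28.3% and 33.5%, then 41.6% and 34.2%. JUND stayed between 18.8% and 27.3%. The ratio of JUN to JUNB per kb therefore ran from 11.2 and 9.21 in SB through 1.79 and 1.42 at 3 days to 0.851 and 1.12 at 7 days. The level of FOSL1 relative to the sum of the 3 Jun genes was 5.45 and 3.26 in SB, 4.38 and 4.06 at 3 days, and 1.07 and 1.32 at 7 days. At 3 days, the Jun genes had thus changed in proportion while FOSL1 remained the main Fos transcript. At 7 days FOSL1 was still the main Fos transcript, at 2770 and 2600 per kb of 3840 and 3200 for the Fos genes together. FOSL1 transcripts were then near the level of all Jun transcripts together. These are transcript levels, and neither proteins nor dimers were measured.

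**Figure D4:**
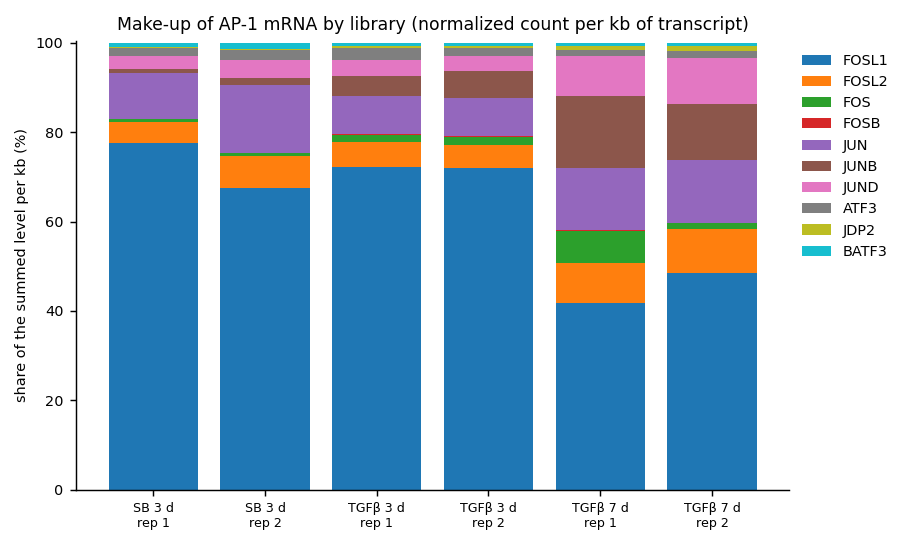
Share of each AP-1 gene in the summed normalized count per kb of transcript (y axis, percent), 1 bar per library. FOSL1 holds 67.6% to 77.6% in the SB bars and 41.9% and 48.6% in the 7-day bars, where JUNB holds 16.2% and 12.6%.

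For each of the 8 members with a mean of at least 100, the 3 genes with the nearest pattern over the 6 libraries were found by the Euclidean distance between log2 values centred on each gene's mean. Nearest to JUNB were SNAI1, which encodes the EMT factor Snail, at a distance of 0.33, the semaphorin gene SEMA3F (0.364) and TGFB1 (0.434). SNAI1 was at 51 and 68 in SB, 196 and 247 at 3 days, and 359 and 276 at 7 days. In every group its higher value was in the same replicate as that of JUNB, as were those of SEMA3F and TGFB1. Since these genes were chosen for closeness to JUNB over the same 6 libraries, this shared order follows from the choice. Nearest to FOSL1 were PPP1R15A (0.355), a phosphatase subunit of the stress response, and the MAP kinase phosphatase gene DUSP2 (0.386); the next row carries a number in place of a symbol and is not named. The 3 genes nearest to JUN included ZDHHC14 (0.143) and EMC9 (0.147). JUND lay nearest to MTSS1 (0.0942), ATP6AP1 and STAT5A. ATF3 lay nearest to SYDE2 (0.365), DLC1 and NRK, and JDP2 to NMB (0.155), CD81 and IRGQ. For FOSL2, which varied little, ACADVL (0.0557), UVSSA and LOC100130744 were nearest. FOS had no close neighbour: its nearest gene, CRIP2, lay at 1.68, where the length of the FOS pattern itself was 2.55.

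Genes that act upstream of the AP-1 genes were counted next. Of 28 genes of the RAS, MAP kinase, ternary complex factor and MRTF group tested, 4 were higher, 6 lower and 18 did not pass at 3 days against SB, and 9, 5 and 14 at 7 days, near the 29.0% and 54.5% called among all genes. Without 1 library, those called at 7 days ranged from 9 to 14, the lowest without the 7-day replicate 2. MAP2K3, a kinase that activates p38, fell 1.98-fold at 3 days (log2 fold change -0.98, adjusted p = 4.12e-05) and 3.70-fold at 7 days (-1.89, adjusted p = 7.38e-08). MAP3K5 (ASK1), which lies upstream of JNK and p38, fell 1.65-fold and 2.42-fold. In the other direction, MKL1 (MRTF-A), the actin-regulated coactivator of SRF, rose 2.02-fold at 3 days, and the ternary complex factor gene ELK3 rose 1.89-fold and 1.76-fold. MAP2K6, another kinase of p38, rose 1.87-fold from 3 to 7 days. In that comparison 4 of the 28 genes were higher, 4 lower and 20 did not pass, beside 33.2% called among all genes. Fewer were called when any TGFβ library was left out. Of 11 genes for turnover and cofactors of AP-1, 3 were higher, 2 lower and 6 did not pass at 7 days against SB, beside 54.5% called among all genes. The 5 called became 1 without the SB replicate 1 and 2 without either 7-day library. At 3 days 2 were called, and 0 to 2 without 1 library.

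The 24 other immediate early genes tested were counted in the same way. At 3 days against SB, 13 were higher, 2 lower and 9 did not pass, with a median log2 fold change of 0.50 beside -0.02 over all genes, of which 29.0% were called. Those called numbered 18 without the SB replicate 1 and 10 without the SB replicate 2, against 15 with all libraries. Between 7 and 3 days, 3 were higher, 10 lower and 11 did not pass, with a median of -0.38 beside 0.02 over all genes. Of all genes, 33.2% were called in this comparison, 17.0% higher and 16.2% lower. EGR1, which is induced through SRF as FOS is, rose 2.60-fold at 3 days (log2 fold change 1.38, SE 0.295, adjusted p = 0.00432), a call lost without the SB replicate 2 (1.02, adjusted p = 0.0627). It fell 3.24-fold from 3 to 7 days (-1.70, SE 0.295, adjusted p = 0.00149), with -2.25 without the 7-day replicate 1 and -1.14 without replicate 2, both past the threshold. CYR61 and CTGF, targets of YAP and SRF, fell 11.1-fold and 5.04-fold from 3 to 7 days. SGK1, a kinase gene induced by serum, rose 1.93-fold at 3 days, while the nuclear receptor gene NR4A1 fell 2.56-fold. At 7 days against SB, 6 of the 24 were higher, including IER2 (2.53-fold) and IER3 (2.26-fold), 8 were lower and 10 did not pass. Among all genes 54.5% were called there, 27.7% higher and 26.9% lower, so the count of this list lay near the share of all genes. Without the 7-day replicate 1, whose values for several of these genes were given above, 1 was higher and 10 lower between 7 and 3 days, and without replicate 2, 2 and 7.

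Of 27 other bZIP genes tested, 7 were higher and 3 lower at 3 days, and 9 higher and 7 lower at 7 days, against SB, beside 29.0% and 54.5% called among all genes. The 10 called at 3 days became 5 without the SB replicate 2 or either 3-day library, and the 16 at 7 days became 10 without the 7-day replicate 2. MAF, whose product can pair with Fos and Jun proteins, was at a mean of 11 in SB, 31.0 at 3 days and 286 at 7 days (log2 fold change 4.58 at 7 days against SB, adjusted p = 6.53e-08). The small Maf gene MAFF fell 2.20-fold from 3 to 7 days. In that comparison 7 of the 27 genes were higher, 4 lower and 16 did not pass, beside 33.2% called among all genes. Fewer were called when any TGFβ library was left out. CEBPD, a C/EBP factor gene of the acute phase response, fell 3.58-fold at 3 days and 4.04-fold at 7 days.

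Genes known as AP-1 targets were counted in a list of 23 that were tested. At 3 days against SB, 14 were higher, 5 lower and 4 did not pass, with a median log2 fold change of 0.60, beside 29.0% called among all genes; at 7 days against SB, 11 were higher, 7 lower and 5 did not pass, with a median of 0.13, beside 54.5%. The cytokine gene IL11 rose from a mean of 10.5 in SB to 414 and 957, and the gelatinase gene MMP9 from 6.0 to 55.0 and 202. IL11 is also a direct target of SMAD proteins. The collagenase genes MMP1 and MMP13 followed another course, at means of 336 and 406 in SB, 639 and 822.5 at 3 days, and 284.5 and 381.5 at 7 days, where neither passed the threshold against SB; for MMP1 this rested on the SB replicate 2, without which its log2 fold change was -0.56 (adjusted p = 0.00675). VEGFA fell 1.51-fold at 3 days and rose 2.42-fold from 3 to 7 days. The growth factor gene AREG, at a mean of 38.0 in SB, was at 5.0 and 2.0 under TGFβ. Of all genes tested, 33.2% passed between 7 and 3 days, 17.0% higher and 16.2% lower. Between 7 and 3 days, 7 targets were higher, 10 lower and 6 did not pass, with a median of -0.28; without the 7-day replicate 1 these were 4 higher and 6 lower, and without replicate 2, 6 and 5.

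**Figure D5:**
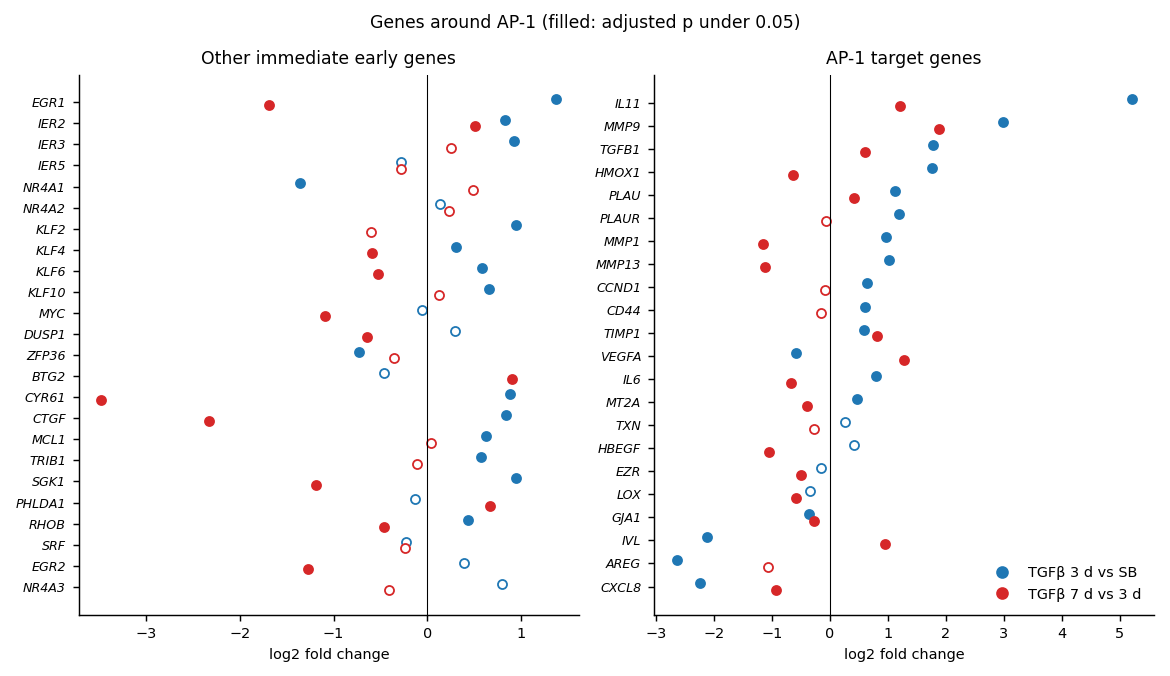
Log2 fold changes (x axis) of the 24 other immediate early genes (left) and 22 of the 23 AP-1 target genes (right) at 3 days against SB (blue) and at 7 against 3 days (red); filled points passed an adjusted p of 0.05. EGR1 stands at 1.38 and -1.70, CYR61 at -3.48 in the second comparison, and IL11 at 5.21 in the first.

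Genes of the heat shock response, a set induced by stress apart from the immediate early genes, were also counted. Of 12 tested, 5 were called at 3 days and 7 at 7 days against SB, all of them lower, beside 29.0% and 54.5% called among all genes in either direction. The 5 at 3 days became 2 without the 3-day replicate 1, and 3 without the SB replicate 1 or the 3-day replicate 2. The 7-day replicate 1 was the higher of its pair for 3 of the 12. HSPD1, a mitochondrial chaperone gene, fell 2.35-fold at 7 days. The 5 genes that did not pass against SB at 7 days went both ways. HSPA1A, DNAJB1 and BAG3 had positive log2 fold changes (0.19, 0.15 and 0.07), and HSPA1B and HSPH1 negative ones (-0.16 and -0.07). From 3 to 7 days, 2 of the 12 genes were higher, 4 lower and 6 did not pass, beside 33.2% called among all genes. DNAJB1 rose 1.48-fold in that comparison (limma, adjusted p = 0.000426).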

How the data were processed

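RNA-seq of polyA RNA from H2087-LCC cells was read in 6 libraries, 2 each for SB, TGFβ 3 days and TGFβ 7 days, grouped by the labels. The authors prepared TruSeq libraries without strand marking, mapped read pairs to hg19 with STAR, counted reads over genes with HTSeq (0.6.1p1 in the submitters' processing notes) and scaled the counts by library size. The deposited values, recorded under the unit score, are these normalized counts, rounded to whole numbers. They are not raw counts, so count models were not used. Genes averaging 10 or more (14395) were transformed as log2(value + 1) and fitted with limma 3.58.1 (R 4.3.3, trended prior, group as the only term, 3 residual degrees of freedom), with Benjamini-Hochberg adjustment over all genes for each of the 3 comparisons. Fold changes are on this scale, which understates those of low genes. An exact permutation test of 2 against 2 libraries cannot give a p below 0.333. Depths cover counting error only. Intervals are 95% intervals of the fit.

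The members and gene lists were chosen with earlier results of these data known. Every member was named, and from each other list up to 4 genes per comparison past the threshold with the largest changes, and the 3 genes nearest in pattern to each member with a mean of 100 or more. MMP13, and DUSP1 and the SB values of CYR61, CTGF, BTG2, IER3 and NR4A1, were named after their values were seen. The same holds for the heat shock genes that did not pass at 7 days against SB. Some genes that the rule names are not reported here. Lengths and positions are those of GENCODE release 44 lifted to GRCh37, and promoters those of RefSeq on GRCh38.p14, named by symbol. The simulated-data check of the fit was run before the real values. Alternatives were a pseudocount of 0.5 or 5, no filter, a mean of at least 50, 3 other scalings, no trend, only the 4 libraries compared, the replicate number as a block, and each library left out.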

Additional observations from a re-analysis of the deposited data

Results flagged for a closer look

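The following differ between the TGFβ durations by the direct test of 7 against 3 days in limma. Since the effect at each duration is taken against the same SB libraries, the difference of the effects is this contrast, and it rests on 2 libraries a group. Without an SB group at 7 days, the contrast cannot tell the duration of TGFβ apart from the time in culture. FOSL1 (-1.51 on the log2 scale) and ATF3 (-1.59) were lower, and both were within 0.20 of SB at 3 days. BATF3 (-0.84) was lower at both times. JUND (0.65) and JDP2 (0.58) were higher at 7 days, with log2 fold changes of -0.07 and 0.09 at 3 days. JUNB (0.61) was higher at both times, and its difference no longer passed without replicate 1 of either TGFβ group or without either SB library (adjusted p = 0.0532 and 0.0527).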

How the results depend on the processing

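Over the members and comparisons, 319 results from the settings other than leaving 1 library out kept their direction and side of the threshold. Of the rest, 5 passed newly and 6 no longer passed. These settings include the fits of only the 4 libraries compared and the exchanged pairing given below. With 1 library left out, 148 kept both, 7 passed newly, 17 no longer passed and 8 changed sign. The 7 members called at 7 days against SB, JUN and JUNB at 3 days, and FOSL1, JUND and ATF3 between 7 and 3 days passed in every setting run. Between 7 and 3 days, 3042 genes passed without a filter and 3122 without the trend, against 4775. Without 1 library, genes called ranged from 2608 to 3894 at 3 days, 5893 to 7682 at 7 days and 2294 to 5570 between them, and members called from 2 to 5, 7 to 9 and 3 to 6. FOSB at 3 days (adjusted p = 0.174, 0.0654 and 0.125) and JUNB between 7 and 3 days (0.208, 0.0696 and 0.17) no longer passed without a filter, with equal library totals and without the trend; the cause was not tested. FOSL2 at 7 days passed with equal totals (-0.25, adjusted p = 0.0483). Signs changed with 1 library left out for FOSL1 at 3 days (-0.42 to 0.26), for FOS (-0.14 to 2.68) and FOSB (-0.38 to 0.98) at 7 days, and, between 7 and 3 days, for FOS (-1.48 to 1.34, with 0.04 without the 3-day replicate 2), FOSL2 (-0.13 to 0.034, with 0.00642 without the 3-day replicate 2) and JUN (-0.23 to 0.037). The replicate numbers showed no common pairing of the libraries (correlations of deviations 0.14, -0.10 and -0.29). These values cannot settle whether the libraries were paired. With the replicate number as a block, 3943, 7546 and 4485 genes passed, against 4170, 7851 and 4775. Members called were then 5, 8 and 6, and FOS passed against SB for both TGFβ durations (limma, adjusted p = 0.00295 and 0.00224). The log2 values of FOS in replicate 1 minus replicate 2 were 0.665 (SB), -0.224 (3-day group) and 2.81 (7-day group). A block term common to all groups cannot remove differences so unequal. The block call of FOS for 7 days therefore does not settle its direction, which changed with the library left out. A pairing with the 7-day numbers exchanged, chosen after seeing the data, gave 5404, 8763 and 5972 genes. FOSL2 at 7 days against SB passed with it (limma, adjusted p = 0.0149). With 2 libraries a group, a lone library left after 1 was dropped is assumed to vary like the other groups. The lowest value of any member was 29 normalized counts, for FOSB.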
